A study of Homo sapiens with 18 samples.

Results

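A set of 6 genes that encode secreted proteins of the cellular stress response was followed by name through the count and FPKM tables of a prostate cancer cell line: FGF21, GDF15, INHBE, ADM2, VEGFA and STC2. They are 6 of the 20258 genes listed in the count tables of both time points, and all 6 were found there. FGF21 had been chosen for its large fall after 7 days of treatment and GDF15 as a target of both p53 and ATF4, with results of these data in view. The 7-day differences from vehicle are therefore described below and carry no test for these 6 genes.

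Cells that run short of amino acids, or whose endoplasmic reticulum is burdened with unfolded protein, phosphorylate an initiation factor of translation, and the transcription factor ATF4 is then made in larger amounts. ATF4 binds a composite C/EBP-ATF response element and raises genes of amino acid synthesis and transport, together with a small set of secreted factors through which a stressed cell can act on other cells and tissues. FGF21 and GDF15 are known as endocrine signals of such stress, INHBE encodes the subunit of activin E, ADM2 a peptide of the calcitonin family, VEGFA the main growth factor of blood vessels and STC2 a glycoprotein that restrains the pappalysin proteases. GDF15 is also a p53 target, and VEGFA is also a target of the hypoxia-inducible factors.

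C4-2B is a human prostate cancer line that grows without androgen, and the labels give its genotype as WT. Poly(A) RNA was sequenced from 18 libraries in 6 groups of 3. The 2-day groups received DMSO as vehicle or 0.1 μM VIC-1911, an inhibitor of the mitotic kinase AURKA, and the 7-day groups received DMSO, 0.1 μM VIC-1911, 1 μM olaparib, an inhibitor of the PARP enzymes, or both drugs at these doses. The labels do not say whether the 3 libraries of a group come from separate cultures, so p-values measure the spread between these libraries, which may be technical.

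Total counts per library at 2 days lay between 3245273 and 4545256 with vehicle and between 5107326 and 7184420 with VIC-1911. Every VIC-1911 library was thus deeper than every vehicle library at 2 days. At 7 days total counts lay between 4967931 and 19684208, and the shallowest 7-day library was olaparib replicate 1. All 12 markers of prostate luminal epithelium were at 1 FPKM (fragment counts scaled by gene length and library size) or more in every library. Their summed FPKM was 2622 to 2912 at 2 days, 4642 to 4713 with vehicle at 7 days and 3045 to 3466 with the 3 treatments at 7 days. None of 10 hepatocyte markers reached 1 FPKM in every library. The hepatocyte markers summed to 1.465 to 3.02 FPKM at 2 days. At 7 days they summed to 1.735 to 3.028 with vehicle and to 3.487 to 8.405 with the 3 treatments. At each time point 1 of 9 stromal and 1 of 10 leukocyte markers reached 1 FPKM in every library. Library names of the 7-day vehicle and VIC-1911 groups belong to one number run and those of the olaparib and combination groups to another. Run and drug therefore cannot be told apart when olaparib or the combination is set against vehicle, or the combination against VIC-1911.

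FGF21 lies on chromosome 19 (GRCh38.p14, 48755524 to 48758330). It encodes a hormone best known from the liver, which acts on cells that carry FGF receptors together with the co-receptor β-Klotho. Its upstream sequence is shown because FGF21 was the gene chosen for its fall and because the stretch holds the letters of the C/EBP-ATF response element. The stretch is the 250 bases before the annotated start in RefSeq (chr19:48755274-48755523, GRCh38.p14, + strand), with the match in capitals.

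FGF21: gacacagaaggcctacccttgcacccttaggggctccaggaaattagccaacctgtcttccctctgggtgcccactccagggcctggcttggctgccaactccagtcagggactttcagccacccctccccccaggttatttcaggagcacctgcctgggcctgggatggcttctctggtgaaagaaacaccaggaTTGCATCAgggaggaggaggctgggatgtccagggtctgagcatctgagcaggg

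The match lies 54 to 47 bases before the start and reads as the core TGATGNAA on the opposite strand. Promoter sequence was at hand for 4 of the 6 genes, and FGF21 was the 1 of these 4 that holds this core. The core was found on either strand in 3.14% of all 35116 start windows of 250 bases, which is 3.89% of 27305 genes when windows are joined by gene, and in 9 of 39 ATF4 target genes with an entry. None of the 4 windows holds the hypoxia core ACGTG, found in 18.5% of all windows, or the cyclic AMP element TGACGTCA, found in 1.65%. A match describes the letters in this window and does not show that a factor binds there.

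FGF21 was a weakly expressed gene that was lower in every treated library than in any vehicle library of its time point. At 2 days its FPKM was 1.94, 3.57 and 3.19 in the vehicle libraries and 0.396, 0.581 and 0.551 with VIC-1911. The lowest vehicle library thus lay above the highest VIC-1911 library. The FGF21 values rest on 40 counts in vehicle and 11 counts with VIC-1911, which gives a vehicle-to-VIC-1911 ratio of 5.66 (95% exact counting interval 2.85 to 12.2) that covers counting error only.

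At 7 days FGF21 stood at 3.72, 4.03 and 3.71 FPKM in the vehicle libraries, 3.82 ± 0.182 (SD, n = 3). With VIC-1911 it was listed at 0.0893 FPKM in 1 library and at 0 in the other two, and with olaparib at 0.0440 FPKM in 1 library and at 0 in the other two. In the combination all 3 libraries were at 0. In counts, the 173 reads of the vehicle libraries stood against 1 read with VIC-1911, 1 read with olaparib and 0 with the combination. The vehicle level was 172-fold that with VIC-1911 (95% counting interval 30.4 to 6818) and 188-fold that with olaparib (33.4 to 7482). It was at least 66.3-fold that with the combination, taking a floor of 3 counts over the group. Each of the first 2 ratios rests on 1 read of 1 library. Without VIC-1911 replicate 1 the vehicle level of FGF21 was at least 42.3-fold higher, and without olaparib replicate 3 at least 33.2-fold higher. Without VIC-1911 replicate 3 and without olaparib replicate 2, neither of which held a read, the ratios were 101 and 111, and the bound for the combination was 39.9 without its replicate 1 and 43.7 without its replicate 3. No fold between the treatments is given, since all of them lay at or under the floor.

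INHBE (chromosome 12, 57455307 to 57458025) was lower still in level and showed the same order. Activin E, which is made from its product, is secreted by the liver and acts on fat tissue. The vehicle libraries held 0.616, 0.556 and 0.854 FPKM at 2 days, and the VIC-1911 libraries 0.216, 0.106 and 0.160. The groups did not overlap, and the 26 vehicle counts against 7 gave a vehicle-to-VIC-1911 ratio of 5.78 (95% counting interval 2.44 to 15.8). At 7 days the vehicle libraries held 1.14, 0.615 and 0.698 FPKM, while no treated library exceeded 0.0825. The sums were 102 counts in vehicle, 3 with VIC-1911, 3 with olaparib and 5 with the combination, so the vehicle level of INHBE was 33.7-fold (11.2 to 166), 37.0-fold (12.3 to 183) and 23.5-fold (9.73 to 73.8) that of the treated groups in this order. Combination replicate 3 held 4 of the 5 counts, and without it the last ratio was 77.3, while without combination replicate 1 it was 14.1. Without VIC-1911 replicate 3, which held all 3 counts of its group, the vehicle level of INHBE was at least 19.9-fold higher. The ratio to olaparib was 21.9 without olaparib replicate 2 and 58.8 without olaparib replicate 3. An antisense gene overlaps INHBE over 1685 bases in GENCODE, and since no source gives the strand setting of the counting, reads of the pair cannot be told apart.

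FGF21 and INHBE passed the filter on low counts at 7 days (10 counts in 3 libraries) through the vehicle libraries, and both fell under it at 2 days, where 4 of the 6 genes were tested. With no filter, edgeR's quasi-likelihood test at 2 days gave FGF21 a log2 fold change of −2.44 (SE 0.453, Benjamini-Hochberg adjusted p = 5.1e-06), and every library left out in turn kept the adjusted p at or below 0.00267. For INHBE it gave −2.44 (SE 0.577, adjusted p = 0.000731). INHBE no longer passed when vehicle replicate 3 was left out (adjusted p = 0.0545). On log2(FPKM + 0.1), which shrinks changes of low genes, limma gave −2.27 for FGF21 (adjusted p = 0.000231) and −1.58 for INHBE (adjusted p = 0.00246).

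GDF15 (chromosome 19, 18386158 to 18389176) was the most abundant of the 6 genes per length and, of the 4 well expressed ones, the one with the smallest differences from vehicle. Its product is a distant member of the TGF-β family that rises in many forms of tissue stress and reduces appetite. At 2 days it was at 478, 504 and 573 FPKM with vehicle and at 424, 467 and 528 with VIC-1911. The 2 ranges overlap, and GDF15 did not pass the test at 2 days (log2 fold change −0.11, SE 0.0572, 95% interval −0.23 to 0.0057, adjusted p = 0.208). Without VIC-1911 replicate 3, the highest of its group, the log2 fold change was −0.20 and passed (adjusted p = 0.0315). At 7 days GDF15 stood at 1337, 1251 and 1430 FPKM with vehicle, and at 670, 703 and 550 with VIC-1911. With olaparib it was at 510, 593 and 649 FPKM, and with the combination at 563, 522 and 507. All 9 treated libraries lay below all vehicle libraries and kept 47.9%, 43.6% and 39.6% of the mean vehicle FPKM with VIC-1911, olaparib and the combination. The fitted log2 differences of GDF15 from vehicle were −1.11 (SE 0.0708), −1.21 (SE 0.0712) and −1.34 (SE 0.0712). The microRNA gene MIR3189 lies within GDF15 over 73 bases, and its reads cannot be told apart from those of GDF15.

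ADM2, also called intermedin (chromosome 22, 50481543 to 50486437), encodes a vasodilator peptide that acts through the calcitonin receptor-like receptor. It was at 29.3, 27.4 and 28.0 FPKM with vehicle at 2 days and at 18.5, 18.1 and 22.03 with VIC-1911. The groups did not overlap, and ADM2 fell by 0.48 on the log2 scale (SE 0.0639, adjusted p = 5.7e-07). At 7 days the vehicle libraries held 60.7, 62.9 and 61.8 FPKM of ADM2, against 11.5, 13.5 and 11.8 with VIC-1911, 10.2, 11.1 and 10.6 with olaparib and 11.3, 11.8 and 11.6 with the combination. The treated libraries all lay far below the vehicle libraries, with fitted log2 differences of −2.38 (SE 0.0539), −2.55 (SE 0.0552) and −2.42 (SE 0.0534). ADM2 overlaps the antisense gene SBF1 over 2381 bases, so its counts are uncertain. SBF1 itself had log2 fold changes of 0.05 at 2 days and of −0.34, −0.28 and −0.22 at 7 days.

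STC2 (chromosome 5, 173314723 to 173328414) followed ADM2 closely in size. It was at 26.5, 27.4 and 26.3 FPKM with vehicle at 2 days and at 16.3, 16.4 and 19.7 with VIC-1911. STC2 fell by 0.59 on the log2 scale (SE 0.0615, adjusted p = 2.6e-09), with no overlap. At 7 days STC2 stood at 73.8, 75.8 and 80.8 FPKM with vehicle, and the 9 treated libraries all lay between 12.5 and 13.7. The fitted log2 differences were −2.60 (SE 0.0490), −2.59 (SE 0.0496) and −2.52 (SE 0.0483), and VIC-1911, olaparib and the combination kept 17.0%, 16.9% and 17.5% of the mean vehicle FPKM.

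VEGFA (chromosome 6, 43770211 to 43786487) was at 32.5, 32.9 and 35.7 FPKM with vehicle at 2 days and at 21.5, 21.5 and 24.8 with VIC-1911. VEGFA fell by 0.58 on the log2 scale (SE 0.0637, adjusted p = 9.9e-09), again with no overlap. At 7 days the vehicle libraries held 94.2, 98.98 and 119 FPKM. VIC-1911 libraries were at 23.1, 23.4 and 21.8, olaparib libraries at 22.1, 23.6 and 22.3, and combination libraries at 27.3, 26.6 and 26.7. Here too every treated library was below every vehicle library, and the combination stood above both single drugs. The fitted log2 differences of VEGFA from vehicle were −2.24 (SE 0.0619) with VIC-1911, −2.21 (SE 0.0624) with olaparib and −1.95 (SE 0.0603) with the combination. An antisense RNA overlaps VEGFA over 188 bases.

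**Figure D1:**
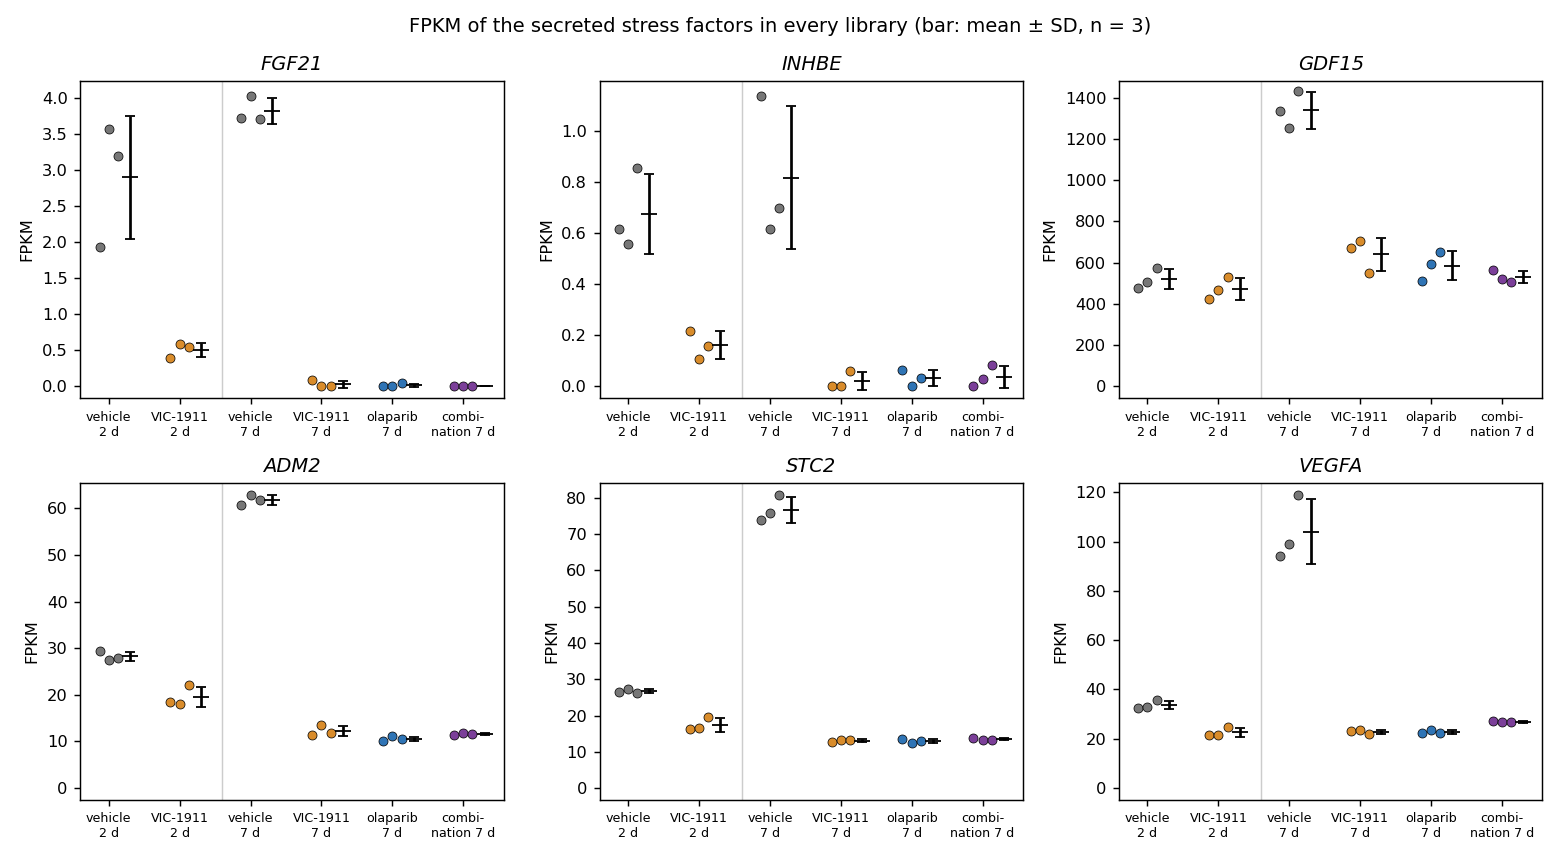
FPKM of the 6 genes (vertical axes, linear, one scale per gene) in each library of the 6 groups, with the mean and the SD of 3 libraries beside the points and a grey line between the 2 time points, whose tables were normalized separately. At 7 days the vehicle libraries of all 6 genes lie above every treated library, while at 2 days GDF15 alone has overlapping groups. How many of all tested genes separate in this way was not counted.

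The 2-day comparison of VIC-1911 with vehicle is the one that the choice of FGF21 did not use. Of the 4 genes tested there, ADM2, VEGFA and STC2 passed at an adjusted p under 0.05, all lower, and GDF15 did not. Among all 12241 genes tested at 2 days 14.7% passed in either direction. STC2 also passed the limit of 1.5-fold, with a fold of 1.51, while VEGFA with 1.49 and ADM2 with 1.40 did not. This split of STC2 and VEGFA depends on the setting. The alternatives put STC2 between −0.68 and −0.545 and VEGFA between −0.67 and −0.52 on the log2 scale, on both sides of the limit. With that limit 1.33% of all tested genes were lower and 0.825% higher. The median log2 fold change of all tested genes was −0.0034. In bulk RNA, fewer expressing cells and less RNA per cell cannot be told apart.

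All 6 genes were lower at 7 days in each of the 3 treatments, which is the contrast by which FGF21 was chosen and from which nothing further is read. All 3 comparisons use the same 3 vehicle libraries. At an adjusted p under 0.05 with no fold limit, 7550, 7785 and 8153 of 14409 tested genes passed with VIC-1911, olaparib and the combination. At the limit of 2-fold with an adjusted p under 0.05, 3.43% of 14409 tested genes were lower and 3.46% higher with VIC-1911, 3.53% lower and 3.63% higher with olaparib, and 4.0% lower and 4.55% higher with the combination. The summed prostate luminal markers were also lower in the treated groups at 7 days, as given above. The difference was smaller in proportion than for ADM2, VEGFA and STC2, and their part in the result was not tested.

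VEGFA was higher in the combination than with either single drug. Against olaparib, a comparison within 1 library run, VEGFA was higher by 0.26 on the log2 scale (SE 0.0636, 95% interval 0.13 to 0.39, adjusted p = 0.00722), and no combination library overlapped an olaparib library. This call is lost in limma on FPKM, where the adjusted p was 0.0510 with a pseudocount of 0.1 and 0.0561 with a pseudocount of 1. ADM2 was at +0.13 (SE 0.0588, interval 0.01 to 0.25, adjusted p = 0.162), STC2 at +0.07 (SE 0.0515, interval −0.03 to 0.18, adjusted p = 0.400) and GDF15 at −0.13 (SE 0.0707, interval −0.27 to 0.02, adjusted p = 0.266). GDF15 passed this comparison when no filter on counts was used (adjusted p = 0.0169). Over all tested genes 11.5% passed in this comparison.

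Against VIC-1911, where run and drug cannot be told apart, VEGFA was higher in the combination by 0.28 on the log2 scale (SE 0.0632, adjusted p = 0.000544), again with no overlap. GDF15 was lower by a log2 difference of −0.23 (SE 0.0705, adjusted p = 0.00926), although 1 combination library lay within the VIC-1911 range. The GDF15 call was lost with DESeq2 (adjusted p = 0.0919), without VIC-1911 replicate 1 (0.0561), without VIC-1911 replicate 2 (0.107) and without combination replicate 3 (0.0554). ADM2 at −0.04 (SE 0.0577, interval −0.16 to 0.07, adjusted p = 0.567) and STC2 at +0.08 (SE 0.0510, interval −0.03 to 0.18, adjusted p = 0.220) did not pass. As 42.9% of all tested genes passed here, 2 of 4 is near the background.

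**Figure D2:**
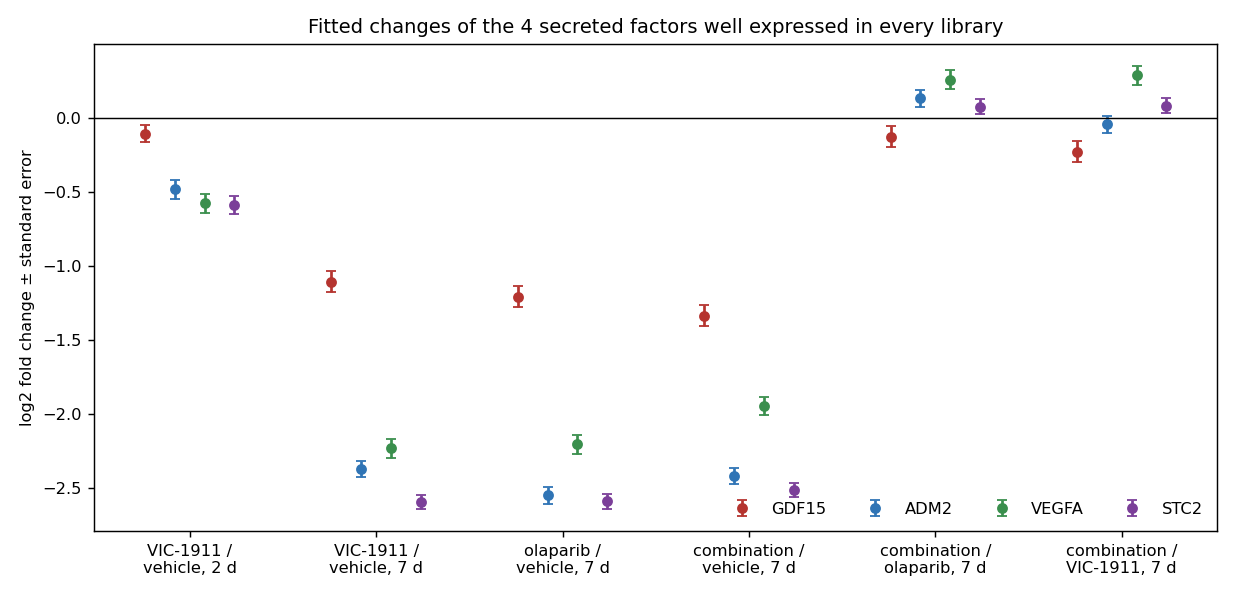
Log2 fold changes fitted by edgeR (vertical axis) with their standard errors for GDF15, ADM2, VEGFA and STC2 in 6 comparisons (horizontal axis), where the zero line marks no change. GDF15 sits nearest to zero in each comparison with vehicle, from −0.11 at 2 days to −1.34 in the 7-day combination, and VEGFA is above zero against both single drugs.

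The smaller difference of GDF15 from vehicle can be read within each library as the ratio of its FPKM to those of the other 3 well expressed genes, a measure added after the values were seen. All 3 ratios share the GDF15 value and restate the differences given above, so they are no further observation. At 2 days GDF15 to ADM2 was 18.4 on average with vehicle and 24.2 with VIC-1911. GDF15 to VEGFA was 15.3 and 20.9, and GDF15 to STC2 was 19.4 and 27.1. In all 3 ratios every VIC-1911 library was above every vehicle library. No test is read from this, since an exact two-sided permutation test of 3 against 3 libraries cannot give a p below 0.1. At 7 days the ratio to ADM2 was 21.7 with vehicle, 52.4 with VIC-1911, 55.1 with olaparib and 45.9 with the combination. The ratio to VEGFA was 12.95 with vehicle and 28.1, 25.8 and 19.8 with the treatments in the same order, and the ratio to STC2 was 17.4 and then 49.1, 45.2 and 39.5.

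**Figure D3:**
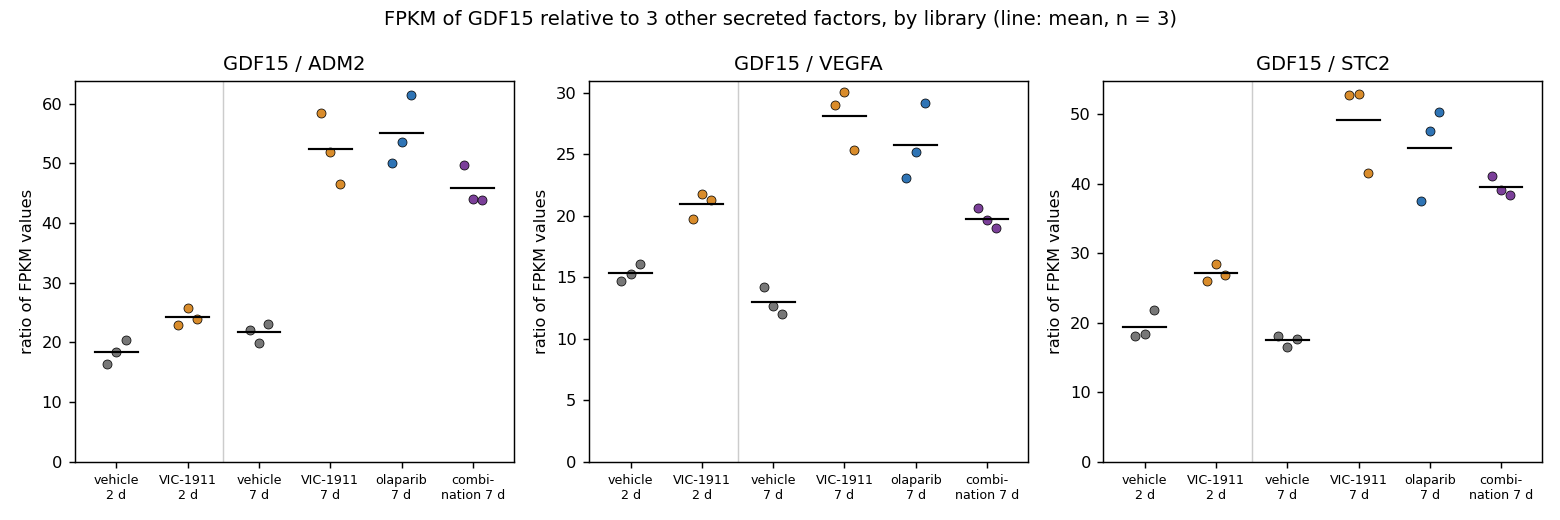
Ratio of the GDF15 FPKM to the FPKM of ADM2, VEGFA and STC2 (vertical axes, from 0) in each library of the 6 groups, with the group mean as a line. The 3 ratios share the GDF15 value and restate the FPKM values of the 4 genes. Treated libraries lie above the vehicle libraries of their time point in all 3 ratios, with VIC-1911 means of 24.2, 20.9 and 27.1 against vehicle means of 18.4, 15.3 and 19.4 at 2 days.

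The other genes of the pathways that control these factors were read from lists written from general knowledge. Earlier results of these data were known when the lists were written, so their counts are no independent check. Of 50 ATF4 targets outside the 6 genes, all tested, 17 were called lower at 2 days by edgeR (16 by DESeq2) and 0 higher by either tool. Of all genes tested by edgeR at 2 days, 1.33% were called lower and 0.825% higher. At an unadjusted p under 0.05, with no fold limit, 43 of the 50 targets were lower and 1 was higher. The share of all genes at this unadjusted p was not counted, here or for the lists below. The list's median log2 fold change was −0.42, against −0.0034 for all tested genes. PCK2, which makes phosphoenolpyruvate in mitochondria, fell from 82.3 to 38.0 FPKM (log2 fold change −1.09, SE 0.0574, adjusted p = 2.4e-17). The cystine transporter gene SLC7A11 fell from 31.0 to 14.9 FPKM (adjusted p = 3.0e-16), and PHGDH, the first enzyme of serine synthesis, from 282 to 161 FPKM (adjusted p = 7.3e-16). DDIT4, an inhibitor of mTORC1, fell from 214 to 110 FPKM (adjusted p = 2.4e-17).

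At 7 days 39 of these 50 ATF4 targets were called lower with VIC-1911, 41 with olaparib and 40 with the combination, and edgeR and DESeq2 called 0 higher in each. Of all tested genes, 3.43%, 3.53% and 4.0% were called lower in the same order. At an unadjusted p under 0.05, 48 or 49 of the 50 targets were lower and 0 higher in each treatment. With no fold limit, 7550, 7785 and 8153 of all 14409 tested genes passed at an adjusted p under 0.05, in either direction. The medians of the ATF4 list were −1.58, −1.60 and −1.52. PCK2 fell from 246 FPKM to 16.5, 11.6 and 12.3. The asparagine synthetase gene ASNS fell from 183 to 26.5, 21.4 and 23.7 FPKM, and TRIB3, a pseudokinase that restrains ATF4, from 99.2 to 17.6, 13.1 and 12.7 FPKM. The ATF4 transcript itself was lower too. It passed the test without reaching the limit of 1.5-fold at 2 days, at 298 FPKM with vehicle and 210 with VIC-1911 (log2 fold change −0.48, adjusted p = 3.6e-10). At 7 days ATF4 stood at 394 FPKM with vehicle and fell to 145, 146 and 166. ATF4 was the 1 called gene among 16 regulators of the integrated stress response in each treatment at 7 days.

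Most called p53 targets were higher. Of 40 listed p53 targets outside the 6 genes, 36 were tested at 2 days, of which edgeR called 10 higher (9 by DESeq2) and 0 lower by either tool, with a median log2 fold change of 0.39. Of all genes tested by edgeR at 2 days, 0.825% were called higher and 1.33% lower. At an unadjusted p under 0.05, 27 of the 36 targets were higher and 1 lower. CDKN1A, the cell cycle inhibitor p21, rose from 55.2 to 129 FPKM at 2 days (log2 fold change 1.23, SE 0.0502, adjusted p = 8.5e-21). MDM2, the ubiquitin ligase of p53, rose from 17.0 to 25.6 FPKM (adjusted p = 1.3e-11), and ZMAT3 from 3.04 to 5.52 FPKM (adjusted p = 2.5e-10). At 7 days 39 were tested, and 8, 19 and 21 were called higher with VIC-1911, olaparib and the combination. Of all tested genes, 3.46%, 3.63% and 4.55% were called higher in the same order. The medians of the p53 list were 0.51, 0.97 and 1.22, and CDKN1A rose from 25.9 to 96.1, 216 and 258 FPKM. GDF15, a known target of both p53 and ATF4, was lower in these 7-day groups. The part of either factor in its level was not tested. PMAIP1, a pro-apoptotic gene, was the 1 p53 target called lower with VIC-1911 and with olaparib, falling from 4.96 FPKM to 1.75 and 2.02. With the combination it fell to 2.06 FPKM, and TNFRSF10C was also called lower.

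VEGFA is known as a target of both HIF and ATF4, and the part of either factor in its level was not tested. At 7 days called genes of the HIF list went in both directions. Of 35 listed HIF targets, 31 were tested at 2 days, and 3 were called lower by edgeR and by DESeq2, beside 1.33% of all tested genes, and 0 higher by either tool. At an unadjusted p under 0.05, 4 were lower and 7 higher, and the median log2 fold change was −0.0047. At 7 days, with 33 tested, 2 were called higher and 2 lower with VIC-1911, 1 and 2 with olaparib and 5 and 2 with the combination, beside the 3.43% to 4.55% of all tested genes given above. At an adjusted p under 0.05 with no fold limit, 17, 17 and 19 HIF targets were higher and 7, 5 and 6 lower. Over all 14409 tested genes 7550, 7785 and 8153 passed at that threshold in either direction. The medians were 0.14, 0.16 and 0.18. DDIT4 and VLDLR, which are also in the ATF4 list, were the 2 genes called lower in each treatment at 7 days, and VLDLR fell from 8.03 FPKM to 2.87, 2.89 and 3.35. NDRG1 rose from 39.2 to 106 FPKM in the combination (log2 fold change 1.44, SE 0.0577, adjusted p = 7.0e-19).

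**Figure D4:**
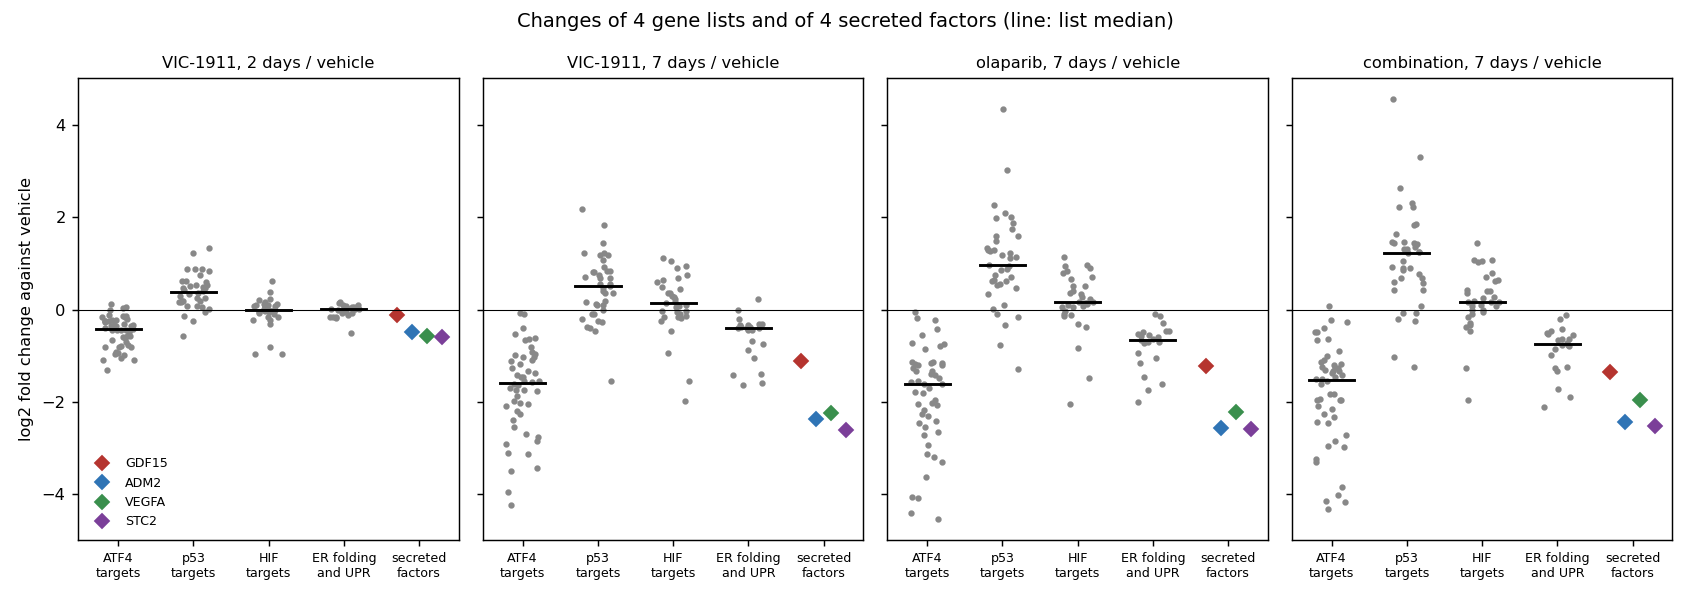
Log2 fold changes against vehicle (vertical axis) of the tested genes of 4 lists (grey points, list median as a black line) and of GDF15, ADM2, VEGFA and STC2 (diamonds) in 4 comparisons. The ATF4 target median is at −0.42 at 2 days and between −1.60 and −1.52 at 7 days, the p53 target median is above zero throughout, the HIF target median stays between −0.0047 and 0.18, and the median of the endoplasmic reticulum folding and unfolded protein response (UPR) list goes from 0.0094 to between −0.74 and −0.40.

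Most receptors for these factors were weakly expressed in C4-2B cells. Of 21 receptor and co-receptor genes 11 were tested at 2 days and 13 at 7 days. RAMP1, a partner of the calcitonin receptor-like receptor, was the most abundant of them at 79.7 ± 4.87 FPKM (SD, n = 3) with vehicle at 2 days and 153 ± 1.28 at 7 days. The FGF receptor gene FGFR3 was at 4.30 and 6.66 FPKM with vehicle at the 2 times, the activin receptor gene ACVR1B at 10.2 and 16.6, and the VEGF co-receptor gene NRP1 at 3.80 and 15.2. NRP1 was at 9.01, 8.10 and 8.51 FPKM with the 3 treatments at 7 days. Some other receptor and co-receptor genes of these ligands, named after their values were seen, were far lower. KLB, which encodes β-Klotho, lay between 0.353 and 0.711 FPKM over all libraries, CALCRL at or below 0.0712 FPKM and KDR at or below 0.00827 FPKM. GFRAL, the GDF15 receptor, was listed at 0 in every 7-day library.

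Of the tested receptor genes, 1 of 11 was called at 2 days, beside 0.825% higher and 1.33% lower of all tested genes. At 7 days 1, 1 and 0 of 13 were called higher and 0, 1 and 1 lower with VIC-1911, olaparib and the combination. Over all tested genes 3.43% to 4.55% were called in each direction at 7 days. ACVR2A was the 1 called at 2 days, higher from 1.13 to 1.48 FPKM (log2 fold change 0.60, adjusted p = 0.0202). At 7 days KL was called higher with VIC-1911 and olaparib at 0.144 and 0.176 FPKM against 0.0598, and RET, the signalling partner of GFRAL, was called lower with olaparib and the combination at 0.0811 and 0.0792 FPKM against 0.328.

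Of 21 paralogs of the 6 genes, 6 were tested at 2 days and 10 at 7 days. At 2 days 1 was called lower, and at 7 days 2 were called lower in each treatment and 1, 2 and 2 higher with VIC-1911, olaparib and the combination. Over all tested genes 1.33% were called lower at 2 days, and 3.43% to 4.55% in each direction at 7 days. INHBB, the activin B subunit gene, was at 7.37 FPKM with vehicle and 6.54 with VIC-1911 at 2 days. VEGFB was at 7.27 and 6.11 FPKM, and neither gene was called at 2 days. STC1 and ADM, the closest relatives of STC2 and ADM2 and named after their values were seen, had group means from 0.480 to 0.901 FPKM and from 0.0105 to 0.202 FPKM. BMP7 was called lower at both times, falling from 6.81 to 4.30 FPKM at 2 days (log2 fold change −0.67, SE 0.126, adjusted p = 0.000203) and from 7.81 to 2.36, 2.61 and 2.23 FPKM at 7 days. CALCA, the calcitonin gene, fell from 2.10 FPKM to 0.0806, 0.126 and 0.196 at 7 days. TGFB2 rose from 0.0593 FPKM to 0.233, 0.589 and 1.12.

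The genes most like each of the 6 across the 12 libraries of 7 days were found by Pearson's r on log2 CPM (TMM-scaled counts) over 12216 genes. These libraries fall into vehicle and treated sets for all 6 genes, so r is given as a description. In the treated libraries FGF21 held 0 or 1 count each and INHBE 0 to 4. The r values of FGF21 and INHBE therefore show little beyond this split, by which FGF21 was chosen. ADM2 was most like ASNS (r = 0.998), PCK2 (0.998) and SLC3A2 (0.997), which belong to the ATF4 list. STC2 was most like RCN1 (r = 0.999), GTPBP2 (0.998) and CHAC1 (0.998), and VEGFA like GPT2 (0.997) and SARS (0.996). FGF21 was most like MTHFD1L (r = 0.995), PSAT1 (0.994) and TMEM39A (0.994). GDF15 and INHBE had weaker nearest neighbours. GDF15 was most like APMAP (r = 0.990), IFT80 (0.988) and TMPRSS2 (0.987), and INHBE like TTC28-AS1 (0.967), VAMP4 (0.966) and TMEM127 (0.965).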

How the data were processed

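Reads had been trimmed (Trimmomatic) and mapped by the authors to GRCh38 using STAR, version 2.6.0 in the submitters' processing notes. The authors deposited raw counts per gene, 1 table of 22136 genes at 2 days and 1 of 21276 at 7 days. Whether counting used strand is not given in the sources used here. The authors also deposited FPKM values made with their own script, which were used as levels. FPKM of the 2 time points were normalized separately, so no test crosses them. The 2-day FPKM rest on more whole reads than the deposited counts (for INHBE in VIC-1911 replicate 1, 6 reads against 2 counts). Kits differ between the labels and the methods. The 6 genes and the lists were chosen with earlier results of these data known.

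The main test was the quasi-likelihood F test of edgeR 4.0.16 under R 4.3.3 on TMM-scaled counts. The 6 libraries of 2 days and the 12 of 7 days had separate fits. A gene needed 10 or more counts in 3 or more of these libraries (12241 and 14409 genes remained). P-values were adjusted by Benjamini-Hochberg over all tested genes. Genes are called at an adjusted p under 0.05 and 1.5-fold (2 days) or 2-fold (7 days). FGF21 and INHBE are given as ratios of summed counts per scaled library size, with exact intervals. These ratios, and the fits of both genes with no count filter and a library left out, were chosen after seeing the data. From each list, up to 4 called genes with the smallest adjusted p in a comparison, and up to 2 called against the list's direction, are named, besides receptors and relatives of at least 1 FPKM and the 3 genes most like each factor, of which 1 is not reported here. Alternatives were upper-quartile or no scaling, no count filter, DESeq2 1.42.0, limma 3.58.1 on log2(FPKM + 0.1) and log2(FPKM + 1), the replicate number as a block, the compared groups alone and each library left out. The code was tested on simulated data. Names turned into calendar dates held at most 0.193% of the counts. Library pairs of a group differed by more than sampling noise (chi-square per degree of freedom 1.26 to 5.52), and none was counted as a duplicate. Sequence and positions are RefSeq's for GRCh38.p14, matched by symbol. The promoter table held no entry for INHBE and VEGFA.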

Additional observations from a re-analysis of the deposited data

How the results depend on the processing

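Of the alternative values for the 6 genes, 360 kept their direction and side of the threshold or moved by less than the spread between replicates, 10 moved by more, 3 newly passed, 6 no longer passed and 1 turned its direction. GDF15 at 2 days passed with the replicate block (log2 fold change −0.11, adjusted p = 0.0400), and ranged from −0.20 to −0.031 with each library left out. Over all tested genes, same-numbered libraries did not deviate together (correlations −0.00287 to 0.0438 at 2 days and −0.0356 to 0.111 at 7 days). This gives no sign that the numbers pair the samples but cannot exclude it. GDF15 itself rose with the replicate number in both 2-day groups. The replicate block changed no other call of the 6 genes. At 7 days, ADM2 against vehicle was −2.25, −2.44 and −2.32 with limma on log2(FPKM + 1) for VIC-1911, olaparib and the combination, and −2.51 and −2.37 for the last 2 with no scaling. STC2 was −2.47, −2.48 and −2.43 with limma on log2(FPKM + 1). Between the combination and olaparib, GDF15 was −0.14 and passed with no filter (adjusted p = 0.0169), and VEGFA was 0.25 and 0.24 with limma and no longer passed (adjusted p = 0.0510 and 0.0561). Between the combination and VIC-1911, GDF15 was −0.23 with DESeq2 (adjusted p = 0.0919) and −0.33 to −0.16 with each library left out, and ADM2 was −0.087 to 0.032, turning positive without VIC-1911 replicate 2 (0.032, adjusted p = 0.709). With each library left out, the vehicle-to-olaparib ratio of FGF21 was 33.2 to 193 and the vehicle-to-combination ratio of INHBE 14.1 to 77.3. The causes of these shifts were not tested, except that the last 2 ratios rest on 1 and 5 counts of the treated groups.

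Counts over all genes moved by more than 1.5 times under some settings. At 2 days, 1798 genes passed in edgeR, 847 in DESeq2 and 1188 without VIC-1911 replicate 1. Genes called higher and lower at 2 days were 101 and 163 in edgeR, 61 and 81 in DESeq2 and 51 and 65 by limma on log2(FPKM + 1). That setting also took the 7-day calls from 499 and 494 to 173 and 158 with VIC-1911, from 523 and 508 to 138 and 201 with olaparib, and from 655 and 576 to 182 and 233 with the combination. Between the combination and olaparib, 1657 genes passed in edgeR, 1031 and 1058 by limma with a pseudocount of 0.1 and 1, 1041 and 1003 without olaparib replicate 2 or 3 and 1127 and 1001 without combination replicate 1 or 3. Of 550 list counts 524 stayed within 1.5 times. The p53 count with VIC-1911 at 7 days went from 8 to 4 by limma on log2(FPKM + 1), and the other list counts that moved were 5 or fewer. Depth limits FGF21 and INHBE, with 0 to 5 counts in each treated 7-day group.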

Other observations

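Other secreted stress factors outside the 6 genes were mostly near the detection limit. Of 42 listed, 11 were tested at 2 days and 16 at 7 days. With VIC-1911 at 2 days 3 were called higher and 0 lower, beside 0.825% and 1.33% of all tested genes. Those called at 7 days went in both directions. With VIC-1911, olaparib and the combination 4, 4 and 5 were higher, and 2 were lower in each. Of all tested genes 3.43% to 4.55% were called in each direction at 7 days. THBS1, the matrix protein thrombospondin-1, rose from 5.06 to 10.6 FPKM with VIC-1911 at 2 days (log2 fold change 1.12, SE 0.0777, adjusted p = 7.3e-14, edgeR quasi-likelihood test). At 7 days THBS1 rose from 8.97 FPKM to 23.3, 52.2 and 56.7 with VIC-1911, olaparib and the combination. LIF, a cytokine of the IL-6 family, rose from 0.865 to 2.26, 4.33 and 5.31 FPKM in the same order. The chemokine gene CXCL12 fell from 2.13 to 0.700, 0.314 and 0.165 FPKM, and TFF3 from 4.71 to 2.06, 1.38 and 0.922 FPKM. IGFBP3, which binds insulin-like growth factors, was not called with VIC-1911 (1.87 FPKM against 2.39), rose to 7.64 FPKM with olaparib and stood at 28.0 FPKM with the combination, where it was called against olaparib (log2 fold change 1.96, SE 0.102, adjusted p = 9.4e-14).

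Of 22 genes of endoplasmic reticulum folding and the unfolded protein response, 0 were called at 2 days by edgeR or DESeq2, and 5, 6 and 6 were called lower at 7 days with VIC-1911, olaparib and the combination. Of all tested genes, 3.43%, 3.53% and 4.0% were called lower at 7 days in the same order. At an unadjusted p under 0.05, 2 of the 22 were higher and 4 lower at 2 days. XBP1, a transcription factor of this response, fell from 335 FPKM to 130, 84.8 and 78.4 at 7 days, and HERPUD1 from 174 to 60.3, 53.1 and 53.3 FPKM. The list's medians were −0.40, −0.64 and −0.74, and 0.0094 at 2 days.

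The levels of 5 of the 6 genes in vehicle libraries stood apart between the 2 times, although these tables were normalized separately and no test joins them. GDF15 was at 518 ± 48.8 FPKM (SD, n = 3) at 2 days and 1339 ± 89.5 at 7 days, VEGFA at 33.7 ± 1.74 and 104 ± 13.1, STC2 at 26.7 ± 0.594 and 76.8 ± 3.60, and ADM2 at 28.3 ± 0.980 and 61.8 ± 1.10. FGF21 was at 2.90 ± 0.855 and 3.82 ± 0.182 FPKM, and INHBE at 0.675 ± 0.158 and 0.817 ± 0.281 with overlapping libraries. The 7-day treated levels of GDF15, from 507 to 703 FPKM, lay in the range of its 2-day levels, from 424 to 573 FPKM, or above it.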
